A study of Caenorhabditis elegans with 6 samples.

Results

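In germlines of wild-type *C. elegans*, 626 positions in the 3′ UTRs of 68 genes were called as A-to-I editing sites in exactly 2 of 3 biological replicates. A call here means a deposited confidence of at least 0.75. Positions listed at any confidence for germlines that lack ADR-2 were left out, which removed 14 of 640 positions (2.19%, exact Clopper-Pearson 95% interval 1.20% to 3.64%). The same step removed 81 of 961 3′ UTR positions called in all 3 replicates (8.43%) and 65 of 2047 called in 1 only (3.18%). The 626 sites are part of 14524 positions, in any gene region, that reached the minimum in at least 1 wild-type replicate. Another 880 3′ UTR sites in 56 genes were called in all 3 replicates, and 1982 in 749 genes in 1 replicate only. Since the confidence is computed from the number of reads and the edited share, the sites were chosen by depth and percent editing, and both are given below as descriptions without a test.

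ADARs are enzymes that bind double-stranded RNA and deaminate adenosine to inosine, which sequencing reads as guanosine. *C. elegans* has a single active deaminase, ADR-2, and its known targets are rich in sites within 3′ UTRs, where inverted repeats can fold back into long duplexes. One such duplex usually carries many edited adenosines, each edited in a part of the molecules. A list of sites therefore depends on how many reads cover each adenosine.

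Both strains were raised at 20°C, and germlines were dissected from young adult hermaphrodites. The wild type is N2 and the control strain is BB20, which carries the deletion *adr-2(ok735)* in every cell, so that the deaminase is missing from the soma as well as the germline. RNA was poly(A)-selected and made into stranded libraries, with 3 replicates per strain. Sites were called in each wild-type replicate on its own, whereas the *adr-2(-)* germlines have 1 merged list and so no spread between replicates. Reads on genes numbered 44991286, 96397215 and 48726973 in wild-type replicates 1, 2 and 3, so replicate 2 was sequenced about as deeply as the other replicates together. The *adr-2(-)* libraries held between 33658937 and 38310069 reads. The germline markers *glh-1*, *pgl-1*, *gld-1*, *cgh-1*, *rme-2* and *puf-5* summed to between 434396 and 504455 normalized counts in every library. Intestine markers were far lower, between 899 and 1622 in the wild type, but reached 7750 in *adr-2(-)* replicate 1. Most of that sum was *vit-2* (3011) and *vit-6* (4696), while *ges-1* had 35.6 there against at most 36.8 in the wild type. *elt-2* had 7.62 against at most 2.90. Muscle markers reached 8378 in this library against at most 1068 in the wild type. Of the hypodermis markers, *col-19* had 2945 against at most 619, and *dpy-7* had 0. Neuron markers, mostly *snb-1*, summed to between 3685 and 4865 in every library.

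Most of the sites called in exactly 2 replicates belonged to genes that were already on the list of edited genes. In all, 586 of the 626 sites lay in 49 genes that also had a site called in all 3 replicates, and 40 sites lay in 19 genes that had none. Adding them to the 880 sites gave 1506 sites in 75 genes, an increase of 71.1% in sites. Of the 56 genes with a 3′ UTR site in all 3 replicates, 7 had no site of this kind (*xpo-2*, *cogc-1*, *M01F1.9*, *Y39A1A.22*, *aakb-2*, *Y75B8A.8* and *cdc-26*). Among all positions called in exactly 2 replicates, 65.6% lay in 3′ UTRs, compared with 87.0% of those called in all 3 and 16.5% of those called in 1 only. The sites were unevenly spread over chromosomes, with 215 on I, 39 on II, 212 on III, 10 on IV and 150 on V. On chromosome IV the list called in all 3 replicates held a single 3′ UTR site, and the 10 added sites lay in 6 genes.

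The sites were also uneven over genes. The top 10 genes together accounted for 313 sites (50%), 20 genes had at least 10 sites, and 16 genes had 1. *Y92H12BL.1* had the most, with 53 sites in 1001 nt of its 3′ UTR (chromosome I, positions 1358506 to 1359506) beside 70 sites called in all 3 replicates. Their median percent editing was 14.7%, against 28.6% for the 70. *F48E8.4* came next with 47 sites in 1509 nt (chromosome III, positions 5459481 to 5460989), more than its 19 sites called in all 3. *mdt-17*, which encodes a Mediator subunit, had 36 sites beside 55, and *eif-4A3*, the RNA helicase of the exon junction complex, had 33 beside 57. In each of these 4 genes, the replicate most often without a call was the first or the third.

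**Figure D1:**
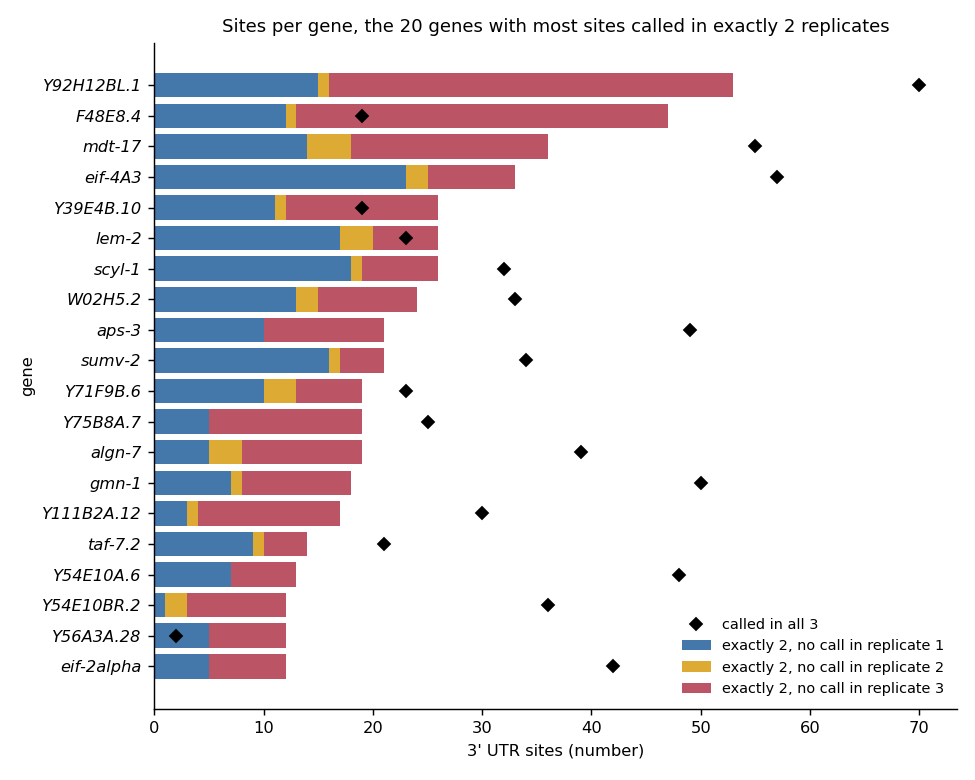
The horizontal axis is the number of 3′ UTR sites and each row is a gene, for the 20 genes with the most sites called in exactly 2 wild-type replicates. Bars are split by the replicate without a call and diamonds mark the sites called in all 3. Replicate 2 takes the smallest part of most bars, and in *F48E8.4* the bar of 47 passes the diamond at 19.

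*lem-2*, which encodes a protein of the inner nuclear membrane, had 26 sites beside 23 called in all 3, and its sites had a low median percent editing of 6.22%. *scyl-1*, a pseudokinase gene of the SCY1-like family, had 26 beside 32, and *Y39E4B.10* had 26 beside 19. *W02H5.2* had 24, and *aps-3*, which encodes the small subunit of the AP-3 adaptor complex, and *sumv-2* had 21 each. Among the 49 genes with both kinds of site, 13 had more sites called in exactly 2 replicates than in all 3. *Y56A3A.28* was the most uneven of these, with 12 sites beside 2.

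The 19 genes without any site called in all 3 replicates each had few sites. *Y92H12BL.5* had 8 sites in 186 nt on chromosome I, with coverage of at most 34 reads where it was called. At position 1376034, all 8 reads of replicate 1 were edited, as were 14 of 15 in replicate 2 and 15 of 27 in replicate 3. *sos-1*, the exchange factor that activates Ras, had 5 sites in 177 nt on chromosome V, all of them called in replicates 1 and 2. Position 4517369 was edited in 7 of 16 reads in replicate 1 and 5 of 10 in replicate 2, and the adjoining position 4517370 in 8 of 16 and 5 of 10. Replicate 3 listed none of the 5 *sos-1* positions, nor any other position within 25 nt of them.

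*pcmd-1*, a gene of centrosome assembly, had 4 sites in 2 pairs. One pair, positions 11604346 and 11604347, had equal counts at both positions, 3 of 92 in replicate 2 and 2 of 81 in replicate 3. The other pair, 11604452 and 11604457, was edited in 3 and 6 of 8 reads in replicate 1 and in 16 and 18 of 45 reads in replicate 2. The pairs thus lacked a call in different replicates. *alh-7*, an aldehyde dehydrogenase gene, and *Y94H6A.7* had 3 sites each. In *alh-7*, 4 of 7 reads were edited at position 13487117 in both calling replicates, and the other 2 sites were edited in 1 to 4 reads. In *Y94H6A.7*, replicate 1 or 3 had a single edited read at every one of the sites, while replicate 2 had 9 of 14, 10 of 24 and 4 of 24 edited.

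*F55H2.5*, *magu-1* and *simr-1*, a gene of the small RNA pathways, had 2 sites each, and 11 genes had 1. The *magu-1* sites, positions 464376 and 464378, had 80.4% and 38.6% mean editing, with 12 and 8 of 14 reads edited in replicate 2. The 11 single sites ran from 1.79% mean editing in *phf-10*, where 4 of 242 and 3 of 155 reads were edited, to 56.8% in *F07C6.4*, where 17 of 26 and 26 of 54 reads were. In *M02B1.3* (1 of 8 and 1 of 5 reads) and *pat-12* (1 of 28 and 1 of 6), a single read carried the change in both replicates.

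The sites lay close to the sites called in all 3 replicates. The median distance to the nearest of these on the same strand was 9 nt, and 123 sites (19.6%) were directly adjacent to one. Within 50 nt lay 494 of 626 (78.9%, exact 95% interval 75.5% to 82.0%), compared with 32.8% of the sites called in 1 replicate only (30.8% to 35.0%) and 97.3% of the sites called in all 3, measured to another such site (96.0% to 98.2%). The intervals cover counting error only, and sites of the same 3′ UTR share reads. By gene, 471 sites lay inside the stretch between the first and the last site called in all 3, and 115 lay outside it, a median of 17 nt and at most 673 nt away.

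**Figure D2:**
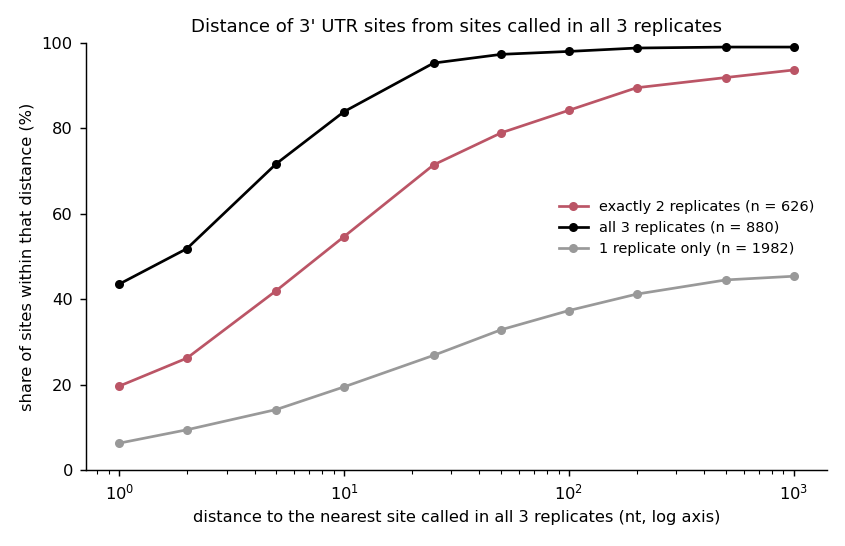
The horizontal axis is the distance in nt to the nearest site called in all 3 replicates, on a log scale, and the vertical axis the share of 3′ UTR sites within that distance. At 10 nt the sites called in exactly 2 replicates reach 54.6%, those called in all 3 reach 83.9% and those called in 1 reach 19.5%.

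Near and distant sites differed in depth and in editing. The 494 near sites had a median of 43 reads in the less covered of the 2 calling replicates and a median editing of 10.7%. The 132 more distant sites, in 40 genes, had 11 reads and 28.4%. Fewer reads raise the least editing that a call takes, from 4% at 50 reads to 10% at 10 reads. The difference in editing is thus in part built in by the rule. Most sites had company of their own kind, since 571 of 626 lay within 50 nt of another. The remaining solitary sites, with neither kind of site within 50 nt, numbered 29 in 26 genes, and 7 of these had a single edited read in a calling replicate.

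Over all 626 sites, mean editing in the calling replicates had a median of 12.6%, with quartiles of 6.57% and 29.3% and a range from 1.54% to 98.1%. The corresponding median of the sites called in all 3 replicates was 24.0%, with quartiles of 11.3% and 43.2%. Under 10% editing lay 253 of the 626 (40.4%) and 182 of the 880 (20.7%). The SD between the calling replicates of a site had a median of 4.05 percentage points. Median coverage where a site was called was 35 reads in replicate 1, 75.5 in replicate 2 and 35 in replicate 3, against 69, 148.5 and 62.5 at the sites called in all 3. The sites were thus less covered and less edited than those called in all 3, a difference that the rule builds in.

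The least edited site with at least 20 reads in both calling replicates was *uba-2* (position 12749157), a gene of the SUMO-activating enzyme, with 13 of 776, 20 of 1424 and 5 of 672 reads edited in replicates 1, 2 and 3. Replicate 3, at 0.744% editing, fell under the confidence minimum, with a confidence of 0.20. The next lowest were in *sqv-6*, *eif-2alpha*, *phf-10* and *vpr-1*, at 1.64% to 1.99% mean editing. In *vpr-1* (position 5868709), 3 of 171 reads were edited in replicate 1 and 5 of 225 in replicate 3, while replicate 2 listed no edited read with 668 reads beside the site. Closest to the confidence minimum on the inside was a *sfa-1* site (position 17104417) at 0.751, and on the outside the replicate without a call at an *unc-16* site (position 9551962) at 0.744.

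A call could rest on little. Up to a coverage of 29 reads, 1 edited read reaches the confidence minimum, at 30 reads 2 are needed, at 100 reads 3 and at 500 reads 7. A single edited read supported the call in at least 1 replicate at 63 of the 626 sites and in both at 7. At least 5 edited reads in both calling replicates supported 295 sites.

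The replicate without a call was replicate 1 at 276 sites, replicate 3 at 306 and the deeply sequenced replicate 2 at 44. In that replicate, 497 sites (79.4%) were not listed at all, 90 (14.4%) were listed with a confidence below the minimum, and 39 (6.23%) were listed with every read edited. The 90 sites below the minimum had a median of 115.5 reads and 1.45% editing there, and 42 of them had 1 edited read. At 35 of the 90 the exact interval of the edited share held the pooled percent of the calling replicates. The largest departure was in *Y39E4B.10* (position 13142624), edited in 27 of 74 and 47 of 116 reads in replicates 1 and 2 and in 1 of 31 reads in replicate 3.

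The 39 sites at which every read was edited are a class of their own. At these positions the deposited confidence is 0, as it is at every fully edited position of the wild-type lists (588, 381 and 444 positions in replicates 1, 2 and 3, of which 87, 63 and 88 lie in 3′ UTRs), so the replicate with the highest edited share counted as having no call. The *adr-2(-)* list, which merges libraries and is not matched in depth, had 1 fully edited position in a 3′ UTR. All 11 of the 626 sites with a mean editing of at least 90% were of this kind, and 21 of the 30 with at least 75%. The highest was in *sumv-2* (position 4627710), where 337 of 337 reads were edited in replicate 1, 582 of 602 in replicate 2 and 193 of 194 in replicate 3.

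The 39 fully edited sites were spread over 20 genes. In *aps-3* (position 1155174), 97.9% of 145 reads, 359 of 371 and 132 of 132 were edited. In *sqv-6* (position 950760), which encodes a xylosyltransferase of glycosaminoglycan synthesis, the counts were 78 of 78, 202 of 211 and 99 of 106. These *sumv-2*, *aps-3* and *sqv-6* sites were edited in nearly all reads of all 3 replicates and lacked a call in the replicate that had no unedited read.

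*scyl-1* had 2 such sites, with 19 of 19 reads (position 13037104) and 56 of 56 reads (position 13037188) edited in replicate 3. *W02H5.2* (position 2646531) had 63 of 64, 103 of 108 and 20 of 20, and *Y75B8A.7* (position 12160139) had 58 of 61, 66 of 69 and 11 of 11. Coverage in the fully edited replicate was 10 reads at the median and at least 20 at 13 of the 39 sites. A low count can reach 100% at a site of middling editing, as in *eif-4A3* (position 630857), with 7 of 7, 20 of 49 and 21 of 46 reads edited. Counting fully edited positions as called, an alternative added after the data were seen, moved 51 sites to the list called in all 3 replicates, which then held 931, and brought the sites called in exactly 2 to 651.

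The lists hold only positions with an edited read, and the lowest coverage listed in replicate 1 was 5 reads. A site with few reads may thus go unlisted for that alone. At the 497 sites that were not listed, the lists give no depth. The coverage of the nearest other listed position within 25 nt stands in for it and was known at 398 of them. Where both could be compared, at 1202 values, this depth was between 0.819 and 1.21 times the site's own depth from the 5th to the 95th percentile. That comparison needs a listed site, so it does not describe the unlisted ones. The median depth beside the 398 unlisted sites was 32 reads. At the pooled edited share of the calling replicates, a median of 3.53 edited reads would be expected there. Fewer than 1 was expected at 25 of these sites and at least 5 at 132. The other 99 had no listed position within 25 nt, and these medians do not describe them.

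Each replicate was then taken in turn as the remaining one, with the 3′ UTR sites called in the other replicates, which gave 3266 cases, 2640 of them called (80.8%). The depth beside the site was used in every case, whether or not the remaining replicate listed the site itself. It was unknown in 128 cases, which were left out of the shares that follow, and these were mostly uncalled, with 25 called (19.5%) and 99 not listed. Among the rest, the share called was 19.4% (6 of 31) where fewer than 1 edited read was expected, 31.2% (34 of 109) for 1 to 2, 57.7% (263 of 456) for 2 to 5, 76.0% (471 of 620) for 5 to 10 and 95.8% (1841 of 1922) for 10 or more. A site called in all 3 replicates enters this count up to 3 times, depth is one of the inputs of the rule and the cases left out depend on the lists, so these shares are a description. Fully edited positions counted as uncalled in these shares. At 10 or more expected reads they were 8, 2 and 11 of the cases in replicates 1, 2 and 3. Ratios of depth, divided by library size factors, could be taken at 398 unlisted sites with a known depth beside them. That depth was 0.82 times that of the calling replicates at the median, 0.97 where replicate 1 lacked the call and 0.68 where replicate 3 did.

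**Figure D3:**
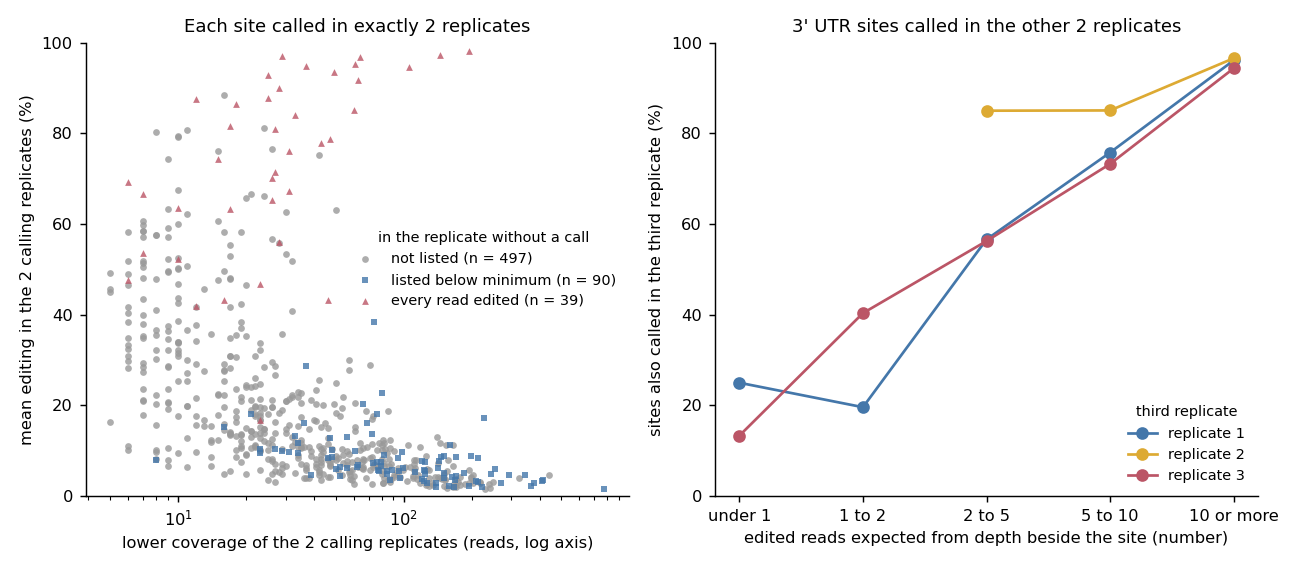
On the left, each of the 626 sites is a point, with the lower coverage of its 2 calling replicates (reads, log scale) against its mean editing (%), marked by its state in the replicate without a call. On the right, the share of sites also called in the third replicate is given by the edited reads expected there, with bins of at least 10 sites shown and the 128 cases of unknown depth left out. All 11 points at a mean editing of 90% or more are among the 39 fully edited sites. Replicates 1 and 3 climb on the right to 96.1% and 94.3% at 10 or more expected reads.

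Neighbouring sites often lacked the call in the same replicate. Of 473 pairs of neighbouring sites within 50 nt of each other, 262 (55.4%) did so, compared with 43.7% over all pairs of sites. All pairs include sites of different genes, and genes differed in the replicate without a call. *F48E8.4* lacked it at 12, 1 and 34 sites in replicates 1, 2 and 3, and *sumv-2* at 16, 1 and 4. Whether neighbours agree more than other sites of their gene was not tested. Defined after the data were seen as at least 5 consecutive sites without a call in 1 replicate, with gaps of at most 250 nt and no site called in all 3 between them, 10 runs in 8 genes held 84 sites. The longest, in *F48E8.4*, had 17 sites in 302 nt (chromosome III, positions 5460457 to 5460758), all called in replicates 1 and 2 and none listed in replicate 3. Coverage over these 17 sites was between 7 and 22 reads where called, their median editing was 43.75%, and replicate 3 listed no other position within 25 nt of any of them.

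**Figure D4:**
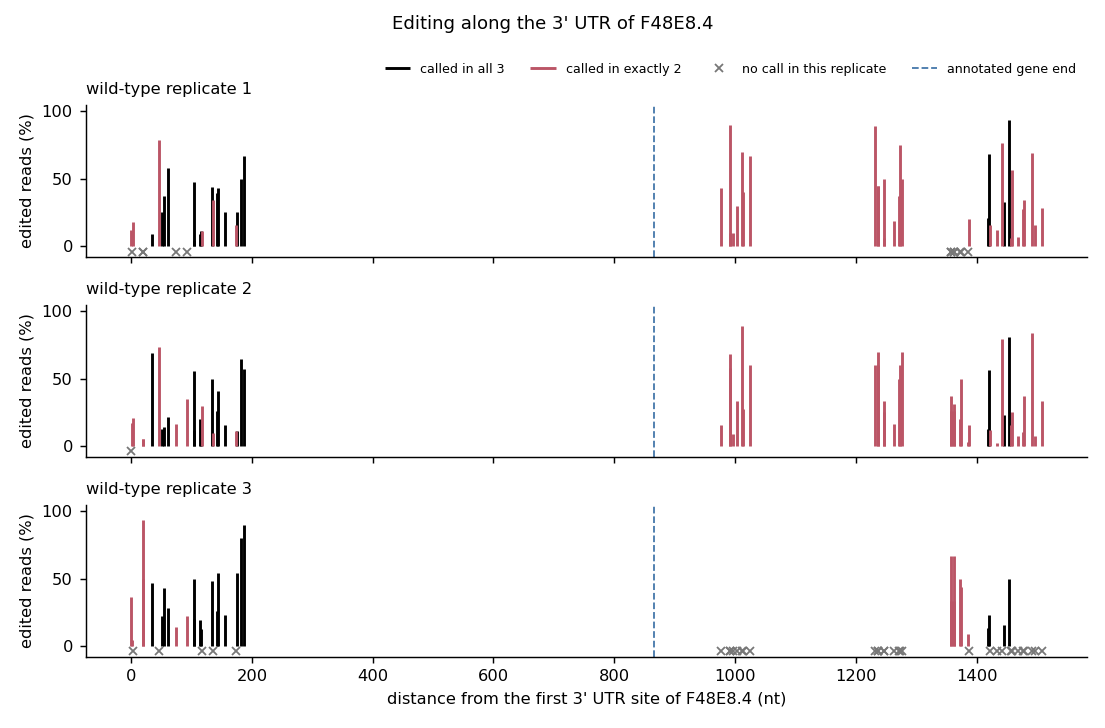
Edited reads (%) are drawn against the distance in nt from the first 3′ UTR site of *F48E8.4*, 1 panel per wild-type replicate, with black lines for the 19 sites called in all 3, red lines for the 47 called in exactly 2, crosses for sites without a call in that replicate and a dashed line at the annotated gene end, 866 nt from the first site. Replicate 3 has crosses alone over the run of 17 sites past the dashed line.

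*scyl-1* had a run of 13 sites in 178 nt (chromosome V, positions 13037250 to 13037427), covered by 9 to 26 reads in replicates 2 and 3 and not listed in replicate 1. *Y92H12BL.1* had 12 sites in 68 nt (chromosome I, positions 1359167 to 1359234), covered by 11 to 71 reads in replicates 1 and 2, with a median editing of 43.7%, and not listed in replicate 3. For the 2 sites of this run with a known depth, 32 reads lay beside them in replicate 3. The 5 *sos-1* sites described above were another run.

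Some sites lay beyond the annotated end of their gene. In the Ensembl release 115 annotation, 544 of the 626 sites (86.9%, exact 95% interval 84.0% to 89.4%) lay inside the gene named for them, compared with 825 of 880 (93.75%) of the sites called in all 3, and 543 lay in one of its 3′ UTRs. The other 82 lay past the 3′ end in 10 genes, 12 to 1451 nt away. *F48E8.4* had 36 of these, 110 to 642 nt past its end, *W02H5.2* had 18 and *tcab-1*, a telomerase factor gene, had 8. *sydn-1* had 6, the most distant ones, at 884 to 1451 nt. None of the 626 sites (upper exact limit 0.588%) and none of the 880 lay over an exon of a gene on the other strand, while 85 of the 1982 sites called in 1 replicate did (4.29%).

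The *adr-2(-)* list gives a background only where it lists a position nearby. Its depth was known within 25 nt at 218 of the 626 sites, with a median of 360.5 reads. At the wild-type edited share, a median of 28.5 edited reads would be expected there and at least 5 at 205 of the 218 sites, and none was listed, since absence from this list chose the sites.

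The last comparison addresses whether the mRNAs that carry these sites change in level without editing. Expression was not used to choose the sites. The targeted gene checks the labels, since *adr-2* had 3020, 2822 and 2852 normalized counts in the wild type and 29.2, 61.0 and 35.6 in *adr-2(-)* (log2 fold change −6.15, SE 0.24, limma with Benjamini-Hochberg adjustment, adjusted p = 5.45e-06). The groups did not overlap, and in every *adr-2(-)* replicate the level was a small part of the wild type. Bulk RNA cannot tell fewer cells of a type from less RNA per cell.

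Expression values were on file for 65 of the 68 genes, and each of these was tested. limma called none of the 65, where a call takes an adjusted p of 0.05 or less and a log2 difference of 0.5 or more in size, against a background of 0.297% of the 9779 genes tested. At an unadjusted p under 0.05 there were 13 of 65 (20%), against 12.5% of all genes. edgeR called 0 of them and DESeq2 1, *gid-7*. The median log2 fold change of the 65 was 0.04, with 39 higher and 26 lower in *adr-2(-)*, and that of all genes was 0.00 (0.00461). In 22 of the 65 genes (33.8%) the groups did not overlap, 17 of them higher in *adr-2(-)*, beside 18.8% of all genes. The 65 genes were more abundant, with a median of 4815 normalized counts in the wild type against 806, and their median SE was 0.07 against 0.13. The part of these differences in the count was not tested.

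*gid-7*, which encodes a subunit of the GID ubiquitin ligase, had the largest difference of the 65, with 220, 233 and 307 normalized counts in the wild type and 350, 491 and 462 in *adr-2(-)*. Its groups did not overlap, and the log2 fold change of 0.78 (SE 0.18) missed the threshold in limma (adjusted p = 0.158) and passed it in DESeq2 (adjusted p = 0.00962). An exact two-sided permutation test gave p = 0.1, the smallest that 3 against 3 replicates allow. *gid-7* had 3 sites called in exactly 2 replicates, beside 3 called in all 3, and they were edited in 1 to 8 of 7 to 23 reads.

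*Y39E4B.10* came second, with 2660, 2455 and 2309 normalized counts in the wild type and 3368, 3139 and 3186 in *adr-2(-)*, again without overlap (log2 fold change 0.39, SE 0.07, limma adjusted p = 0.0975). DESeq2 gave an adjusted p of 0.00218, and its fold change, also 0.39, was under the size a call takes. The largest differences in the other direction were in *alh-7* (−0.23, SE 0.10, adjusted p = 0.382) and *pcmd-1* (−0.22, SE 0.06, adjusted p = 0.173), both from genes without a site called in all 3 replicates. For *pcmd-1* the wild-type values of 4566, 4572 and 4675 all lay above the *adr-2(-)* values of 3924, 3938 and 3973, whereas those of *alh-7* overlapped. *scyl-1*, with 26 sites, had 9560, 8288 and 8539 in the wild type and 8117, 9092 and 8130 in *adr-2(-)*, which overlap (−0.06, SE 0.08, adjusted p = 0.796).

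**Figure D5:**
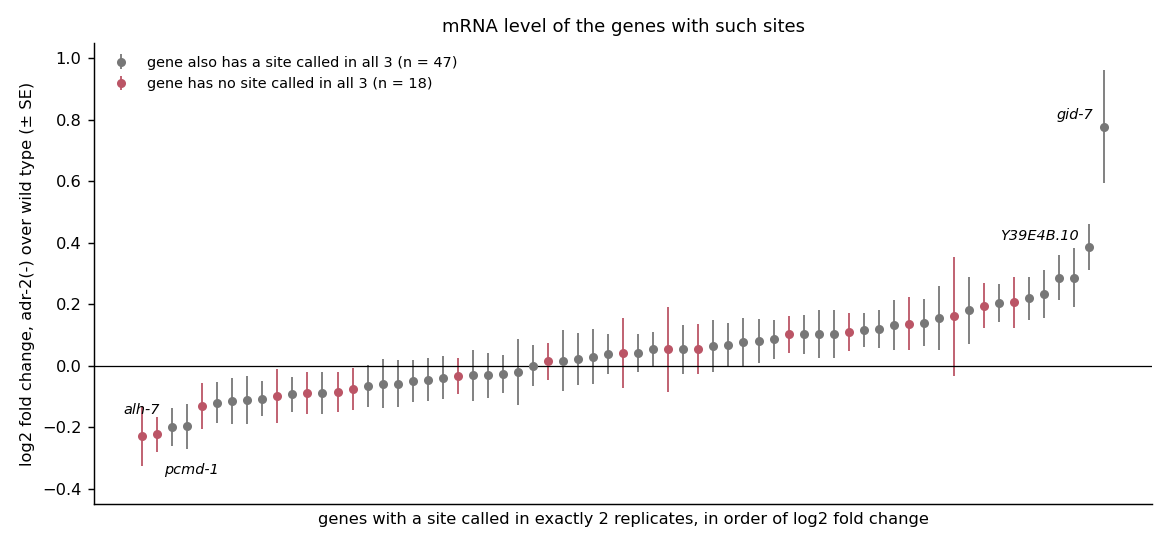
The vertical axis is the log2 fold change of *adr-2(-)* over wild-type germlines, fitted by limma to 3 replicates of each, with its SE, and each point is 1 of the 65 genes tested, in order. Red points are the 18 genes without a site called in all 3 replicates, and all points but *gid-7* at 0.78 lie between −0.23 and 0.39.

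Among the 18 tested genes without a site called in all 3 replicates, log2 fold changes ran from −0.23 to 0.21 with a median of 0.03, and the smallest adjusted p was 0.173. Of the list of RNA editing and small RNA pathway genes, 10 were tested and *adr-2* alone was called. The other 9, among them *adbp-1*, whose product binds ADR-2, *dcr-1*, which encodes Dicer, and the double-stranded RNA binding gene *rde-4*, lay between −0.14 and 0.10. With *adr-2(-)* replicate 1 left out, the library with high *vit-2*, *vit-6* and muscle markers, limma again called 0 of the 65 genes.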

How the data were processed

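Per the paper's methods and the submitters' processing notes, the authors aligned reads to WS275 with STAR 2.7.10b and called sites with SAILOR in each wild-type replicate, and in 1 merged *adr-2(-)* list. The deposited site lists give read coverage with the edited share, a signal without normalization, and the confidence, a score from 0 to 1 that equals the beta probability that the edited share exceeds 1% unless every read is edited. The deposited gene signal is a count divided by 1 size factor per library by the authors with DESeq2. How reads were counted per gene is not given in the sources used here. The deposited table also holds the authors' own fold changes and p-values, which were not used.

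Positions are as deposited, counted from 1, and were matched by chromosome, position and strand. Whole reads were recovered for 100% of expression values within 1e-06. limma 3.58.1 in R 4.3.3 was fitted to log2(value + 1) for genes whose mean reached 10 normalized counts, over both strains. edgeR 4.0.16, DESeq2 1.42.0, other pseudocounts, no filter, TMM, fits without 1 library each and a replicate block were alternatives. On counts simulated from these libraries with 200 genes changed 2-fold, limma called 152 of them and 5 others among 9734 tested. The changed genes were drawn above a minimum mean count. Recovery of smaller changes was not simulated, and the largest log2 fold change among the 65 genes with sites was 0.78. No pair of replicates agreed within sampling noise (chi-square per degree of freedom at least 28.8). The sources say that the replicates are biological. No molecular identifiers were used, and intervals therefore cover counting error alone.

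Genes named by rule were the 10 with most sites, those with at least 3 sites and no site called in all 3 replicates, the 5 most and 5 least edited sites with at least 20 reads, the sites nearest the confidence minimum, and, for expression, the 2 largest differences each way, *gid-7*, *scyl-1* and *adr-2*. Other genes were named after their values were seen. The sites, lists and rules were chosen with earlier results of these data known. Germlines of *adr-1(-)* animals were not analysed here, nor was *drh-3* of the pathway list. Of the marker lists, sheath, neuron, sperm and hypodermis genes also entered the fit, and no marker gene was called. Sites were handled in Python 3.11.15 with pandas 2.3.3 and NumPy 2.4.6, intervals came from SciPy 1.17.1 and figures from Matplotlib 3.10.9.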

Additional observations from a re-analysis of the deposited data

Results flagged for a closer look

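Fully edited positions carry a confidence of 0 in the deposited lists. Comparisons based on calls count them as uncalled, apart from the alternative that counts them as called. In 3′ UTRs the wild-type lists held 87, 63 and 88 of them (replicates 1, 2 and 3), while the merged *adr-2(-)* list, the control, held 1. Each wild-type list is from 1 library and the control list merges libraries, so these counts are not matched in depth. Their median coverage, over all regions, was 6 reads in each wild-type replicate.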

How the results depend on the processing

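Over the alternatives, 5 values of the main results moved past their limit (1.5 times for a count, the exact interval for a share, the SD between replicates for editing, the quartiles for depth) and 39 stayed within it. That SD is the median over single sites and does not measure the spread of a median over sites. The 39 include the expression fits that called 0 of the 65 genes. Requiring 20 reads in both calling replicates left 10 genes without a site called in all 3 instead of 19, and put 90.1% of sites within 50 nt of such a site instead of 78.9%. A distance of 25 nt gave 71.4% and 100 nt gave 84.2%. DESeq2 called 1 of the 65 genes, *gid-7*, at a log2 fold change of 0.78, where limma called 0. The number of sites ran from 433 with 20 reads in both calling replicates to 658 with a confidence minimum of 0.5, and their median editing from 8.76% with 20 reads to 14.8% with a confidence minimum of 0.9. The share of sites in inverted repeats was not run, nor leaving out a replicate for the site lists, since the rule needs all 3. Over all genes, limma called 29, edgeR 19 and DESeq2 127. Leaving out a library gave between 8 and 64 calls, and 0 of the 65 genes in each fit. Without wild-type replicates 1, 2 and 3 there were 8, 9 and 16 calls. Without *adr-2(-)* replicates 2 and 3 there were 64 and 8. There were 37 without *adr-2(-)* replicate 1, the library with high *vit-2*, *vit-6* and muscle markers. The cause of these shifts was not tested. Same-numbered libraries of the strains had correlations of 0.03, −0.22 and 0.38, and differently numbered ones ran from −0.38 to 0.42. Values were centred over only 3 libraries per strain, so these correlations cannot decide whether the numbers pair them. With the replicate block, 25 genes were called, and 0 of the 65.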

Other observations

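At 32 of the 1922 cases where at least 10 edited reads were expected, the remaining replicate did not list the site. In *lin-7* (position 14346764), which encodes a PDZ scaffold protein, 1 of 5 reads was edited in replicate 1 and 11 of 14 in replicate 3, and replicate 2 listed none with 83 reads beside the site. The site's own depth in replicate 2 was not known and may have been lower. Size factors were 0.95, 2.07 and 1.03 in replicates 1, 2 and 3. In *W02H5.2* (position 2646757), the counts were 12 of 19 in replicate 1 and 3 of 27 in replicate 3, with 84 reads beside it in replicate 2. In *mdt-17* (position 20251068), 16 of 17 reads were edited in replicate 1 and 3 of 18 in replicate 2, with 44 reads beside it in replicate 3. This site opened a run of 5 sites without a call in replicate 3. The depth beside those sites was 8 reads at the median and 44 at most. Replicates also differed within the called pair in *Y56A3A.28* (position 11961752), with 1 of 12 reads edited in replicate 1, 62 of 82 in replicate 2 and 22 of 22 in replicate 3.

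In *Y65B4A.8*, the adjoining positions 659883 and 659884 were edited in 15 and 21 of 24 reads in replicate 1 and in 42 and 45 of 60 in replicate 2, while replicate 3 listed neither, with 18 reads beside them.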
